A study of Mus musculus with 3 samples.

Results

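The 10 genes described here encode core subunits of the Polycomb repressive complexes. Ezh1, Ezh2, Eed and Suz12 belong to Polycomb repressive complex 2 (PRC2), and Ring1, Rnf2, Bmi1, Cbx2, Cbx7 and Cbx8 belong to Polycomb repressive complex 1 (PRC1). They were chosen by name and found in the deposited files through their NCBI Gene IDs. All 10 were among the 16742 genes listed in at least 1 library, and each was listed in all 3 libraries.

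RNA-seq was done on 1 library per condition, and each library pooled 3 C57BL/6 mice whose age the labels give as 6 to 8 weeks. The control library came from wild-type lin- bone marrow (BM) cells, which are the cells left after magnetic removal of those with mature lineage markers. The TR1 and TR9 libraries came from sorted GFP+ BM cells of the third generation of mice with leukemia driven by TBLR1-RARα (TR), a fusion of a corepressor subunit with the retinoic acid receptor. The fusion and GFP were expressed from 1 retroviral transcript under the MSCV promoter in lin- cells of the donor, and each line was passed on from a single primary leukemic mouse, number 1 or number 9. Control cells carried no vector. They were obtained by lineage depletion and TR cells by a GFP sort, so the fusion, the line and the way of isolation cannot be told apart. Y-linked RNA differed along with them, with 438.3 counts of Ddx3y in control, 2 in TR1 and 3.05 in TR9. This difference cannot be told apart from the others either, and the labels give no sex. With 1 library per condition there is no spread between mice, and every comparison below compares libraries and not conditions.

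PRC2 methylates histone H3 at lysine 27 (H3K27) through either of the alternative catalytic subunits Ezh2 and Ezh1, held in the complex by Suz12 and Eed. PRC1 ubiquitinates histone H2A through the E3 ligases Rnf2 and Ring1, which pair with a PCGF protein such as Bmi1. In canonical PRC1 a chromobox protein, such as Cbx2, Cbx7 or Cbx8, binds the methylated H3K27 left by PRC2. In blood formation Ezh2 is abundant in dividing progenitors, whereas Bmi1 is known for keeping stem cells self-renewing and for silencing the Cdkn2a locus.

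The upstream sequences of Ezh2 and Ezh1, and of Ring1 and Rnf2, are shown because the balance within each of these pairs of alternative catalytic subunits differed between the libraries. They are RefSeq sequences (GRCm38.p6) from within the 250 bases before the start site, printed 5′ to 3′ on the strand of the gene, which is the minus strand for all of them. Annotated exons were left out, so the Ezh2 stretch is the 125 bases from chr6:47595059-47595183. In GENCODE M21 the Ezh2 gene extends to 47595341, so this stretch lies inside it and is upstream of the RefSeq start site only. The others are chr11:101226464-101226713 for Ezh1, chr17:34024681-34024930 for Ring1 and chr1:151500992-151501241 for Rnf2. Capitals mark matches on either strand to CCAAT, the NF-Y motif, or to GGGCGG, the GC box.
Ezh2: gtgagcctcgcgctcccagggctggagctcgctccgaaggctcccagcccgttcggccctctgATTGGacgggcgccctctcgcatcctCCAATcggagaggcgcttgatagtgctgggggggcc
Ezh1: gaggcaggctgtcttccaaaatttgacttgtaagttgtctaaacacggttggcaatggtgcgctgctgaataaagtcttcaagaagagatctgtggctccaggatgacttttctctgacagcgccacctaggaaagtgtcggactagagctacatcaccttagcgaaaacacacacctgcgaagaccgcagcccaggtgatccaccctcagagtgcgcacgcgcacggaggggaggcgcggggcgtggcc
Ring1: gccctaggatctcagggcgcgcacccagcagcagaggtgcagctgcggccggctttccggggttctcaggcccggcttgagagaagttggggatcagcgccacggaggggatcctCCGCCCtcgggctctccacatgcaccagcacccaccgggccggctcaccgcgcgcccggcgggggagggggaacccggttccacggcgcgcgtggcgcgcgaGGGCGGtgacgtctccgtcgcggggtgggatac
Rnf2: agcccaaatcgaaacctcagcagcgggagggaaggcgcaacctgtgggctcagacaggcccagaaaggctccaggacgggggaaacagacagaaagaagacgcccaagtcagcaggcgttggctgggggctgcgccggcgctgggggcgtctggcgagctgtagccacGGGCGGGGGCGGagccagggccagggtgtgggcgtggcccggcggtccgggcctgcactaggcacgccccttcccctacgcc

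RefSeq windows of 250 bases were found for 9 of the 10 genes. Those of Ezh2 and Cbx7 lie inside the genes as annotated in GENCODE M21. Within them, CCAAT occurred in 4 of 9, against 33.9% of all 32851 windows, and the Ezh2 window held it 3 times, at bases -90 to -86, -64 to -60 and -11 to -7 from the start site. The GC box occurred in 6 of 9 windows, against 32.7% of all. E2F motifs, searched as TTTGGCGC, TTTCGCGC and TTTCCCGC, occurred in 1 of 9 windows, that of Suz12 at bases -219 to -212, against 1.53% of all. The retinoic acid receptor half-site AGGTCA occurred in 0 of 9 windows, against 14.0% of all, and its direct repeats with spacers of 1, 2 or 5 bases also in 0 of 9. Overlapping matches were each counted. The member windows were rich in G and C, with a median of 66.4% against 52.4% for all windows, and the GC box is itself made of these bases. These are matches of letters and not binding sites.

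Ezh2 and Cbx2 were called lower in both TR libraries than in control lin- cells and Ring1 in TR1, while their paralogues Ezh1, Rnf2, Cbx7 and Cbx8 and the PCGF gene Bmi1 were not called. Ezh2 was below control by 2.44-fold in TR1 and by 2.19-fold in TR9. Cbx2 was below it by 4.55-fold in TR1 and by 2.50-fold in TR9. Ring1 was 2.69-fold lower in TR1 and was not called in TR9, where it was 1.95-fold lower. No member was called higher in a TR library, and none was called between TR9 and TR1. These calls rest on counting error. With edgeR's exact test and an assumed biological variation of 0.2, 0 members were called lower in TR1 and 0 in TR9.

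A gene was called when the rounded expected counts of both libraries gave a false discovery rate of at most 0.001 in a conditional exact Poisson test and the log2 ratio of FPKM was at least 1 in size. FPKM scales the fragments of a gene by transcript length and by the total of the library, so levels can be compared between genes. Members called lower than control numbered 3 of 10 in TR1, where 13.2% of all genes tested were called lower, and 2 of 10 in TR9, where 10.9% were. Members called higher numbered 0 of 10 in both, against 8.13% of all genes in TR1 and 9.48% in TR9. In TR9 against TR1 no member was called, against 4.41% of all genes called higher and 2.34% called lower. With 10 genes, 3 or 2 calls are few to set against these shares, and nothing particular to the members is read from them. The median log2 ratio of the members was -0.41 in TR1, beside -0.29 for all genes tested, and -0.25 in TR9, beside -0.12. Between the TR libraries these medians were 0.20 and 0.13.

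Expected counts summed to between 5129662 and 5571409 per library, and the counts of all 10 members were whole numbers in every library, so no fraction of a read had been divided between them and another gene. Intervals below are exact 95% intervals that cover counting error only. The cells differed in kind between the libraries. All 11 erythroid markers, such as Gata1, and all 7 megakaryocyte markers, such as Pf4, were called lower in both TR libraries, and so were 5 of 6 stroma markers, which summed to 643, 9.62 and 10.1 FPKM in control, TR1 and TR9. The summed FPKM of the erythroid markers was 2565 in control, beside 39.0 in TR1 and 35.2 in TR9. That of 9 late granulocyte markers was 92.5, 23157 and 8950. Of these, 9 were called higher than control in TR1 and 7 in TR9. In TR9 against TR1, 2 of them were called higher and 5 lower. Of the 6 primary granule markers, 6 were called higher in TR1 and 5 in TR9. Progenitor markers summed to 456 in control, compared with 248 in TR1 and 401 in TR9, and these 8 genes did not all move one way. Of them 2 were called higher and 5 lower in TR1, and 1 higher and 4 lower in TR9. Cd34 had 1039, 83 and 57 counts, whereas Ly6a was called higher in both TR libraries, from 9.49 FPKM to 26.9 and 87.6, and Flt3 had 327, 792 and 126. In such mixtures fewer cells of a type and less RNA per cell cannot be told apart, and the part of these shifts in the results below was not tested.

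**Figure D1:**
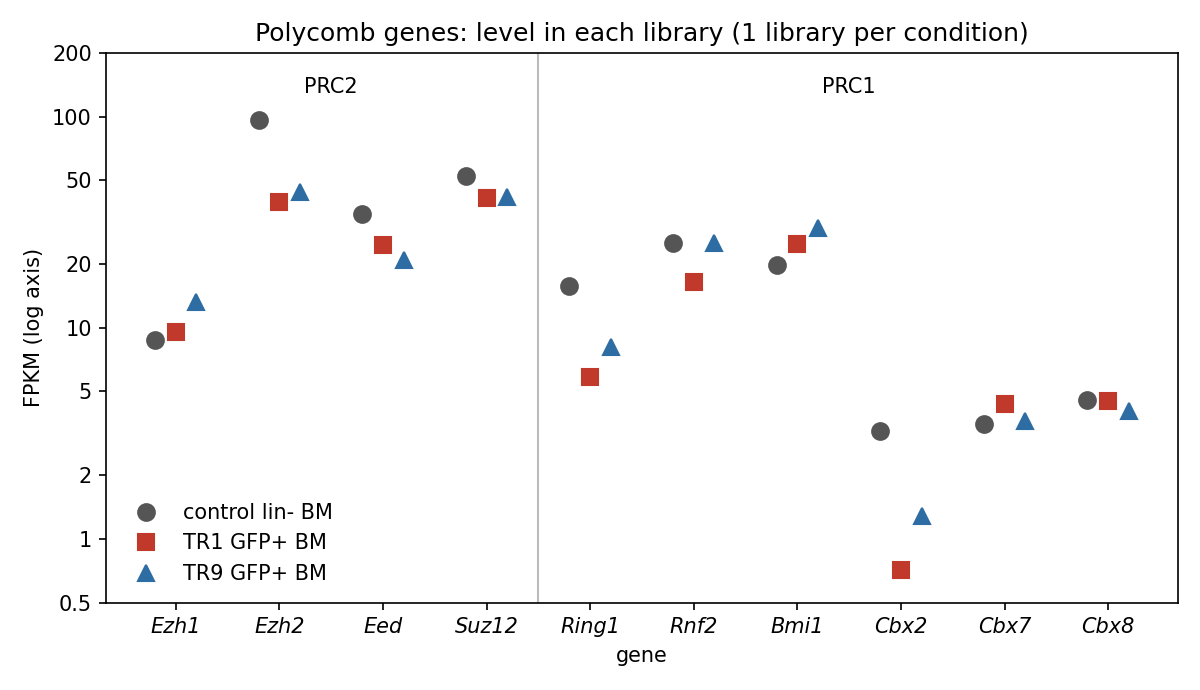
Level of each Polycomb gene in the 3 libraries, as FPKM on a log axis, with PRC2 genes on the left and PRC1 genes on the right. Each point is 1 library without replicates. Ezh2 was at 96.45 FPKM in control and near 40 in TR1 and TR9, while Cbx2 was the lowest member in each library.

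Ezh2, the main catalytic subunit of PRC2 in dividing cells, had 1414 expected counts in control, against 590 in TR1 and 604 in TR9. Per length this was 96.45 FPKM in control, beside 39.54 in TR1 and 44.02 in TR9. The control library stood apart, and both TR libraries were at less than 50 FPKM. Ezh2 was above 95.02% of the listed genes in control, compared with 86.9% in TR1 and 88.0% in TR9. In TR1 the log2 ratio to control was -1.29 (95% interval -1.43 to -1.15), and in TR9 it was -1.13 (-1.27 to -0.99). Between TR9 and TR1 it was 0.15 (-0.01 to 0.32), an interval that includes 0. With TPM scaling that interval lay above 0, at 0.11 to 0.44.

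Ezh1, the alternative and less active methyltransferase, known from non-dividing cells, had 204 counts in control, against 227 in TR1 and 288 in TR9, or 8.76, 9.57 and 13.21 FPKM. It was highest in TR9, and was not called. The log2 ratio to control was 0.13 (-0.15 to 0.41) for TR1 and 0.59 (0.33 to 0.86) for TR9. The interval in TR1 includes 0 and that in TR9 does not. With TMM scaling that in TR1 lay above 0, at 0.09 to 0.65.

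The balance of the methyltransferases within each library does not depend on how libraries are scaled against each other. In control there were 11.01 FPKM of Ezh2 for each FPKM of Ezh1. In TR1 there were 4.13, and in TR9 3.33. Ezh1 thus made up 8.33% of the summed FPKM of the pair in control, beside 19.5% in TR1 and 23.1% in TR9. In TR1 the count ratio of Ezh1 to Ezh2 was 2.67 times that of control (95% interval 2.14 to 3.32), and in TR9 it was 3.30 times (2.68 to 4.07). Between TR9 and TR1 it was 1.24 times (1.002 to 1.53). Ezh2 still exceeded Ezh1 in every library. The summed FPKM of both genes was 105.2 in control, compared with 49.1 in TR1 and 57.2 in TR9.

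Eed, which binds methylated H3K27 and stimulates the enzyme, had 391 counts in control, against 284 in TR1 and 221 in TR9, or 34.63, 24.71 and 20.91 FPKM. Its level was lower in both TR libraries without being called. An antisense transcript, E230029C05Rik, overlaps the start of Eed, and whether counting used the strand is not given in the sources used here. In TR1 its log2 ratio was -0.49 (-0.71 to -0.26) and in TR9 -0.73 (-0.97 to -0.49).

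Suz12, the scaffold of PRC2, had 1286 counts in control, beside 1034 in TR1 and 962 in TR9, or 52.34, 41.30 and 41.75 FPKM. The TR libraries were nearly level with each other, with a log2 ratio of 0.02 (-0.11 to 0.14) in TR9 against TR1. Against control it was -0.34 (-0.46 to -0.22) for TR1 and -0.33 (-0.45 to -0.20) for TR9, and neither was called. With TMM scaling the interval for TR1 came to include 0, at -0.22 to 0.02. In TR1 Suz12 was the highest member, slightly above Ezh2, whereas in control and in TR9 Ezh2 was the highest.

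The ratios of the 4 core PRC2 genes were thus unequal. Ezh2 had the lowest ratio of the 4 in each TR library, Eed and Suz12 lay between it and 0, and Ezh1 had a ratio above 0, except in TR1 with TPM scaling, where it was -0.10. Their summed FPKM was 192.2 in control, compared with 115.1 in TR1 and 119.9 in TR9.

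**Figure D2:**
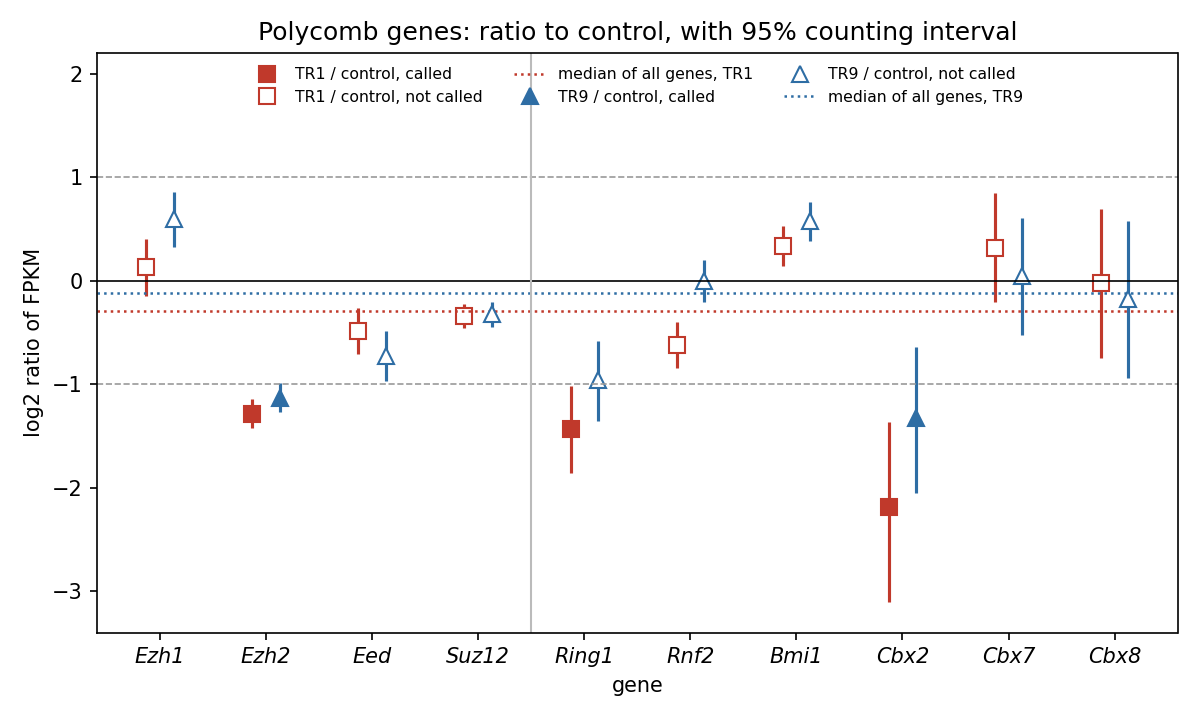
Log2 ratio of FPKM to control for each member in TR1 (squares) and TR9 (triangles), with exact 95% counting intervals as vertical lines. Filled symbols were called, dashed lines mark a log2 ratio of 1 in either direction, and dotted lines mark the median of all genes (-0.29 in TR1, -0.12 in TR9). The filled symbols are Ezh2 and Cbx2 in both TR libraries and Ring1 in TR1. Both series of ratios were taken to the same control library.

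Among the PRC1 ligases, Ring1 had 177 counts in control, against 67 in TR1 and 85 in TR9, or 15.77, 5.86 and 8.09 FPKM. Both TR libraries were well below control. The log2 ratio was -1.43 (-1.86 to -1.01) in TR1, which was called lower. In TR9 it was -0.96 (-1.35 to -0.58), just short of the limit of 1 and not called. The interval of TR9 against TR1, -0.01 to 0.95, includes 0, so TR1 and TR9 are not shown to differ in Ring1 by the call in TR1 alone. With TPM scaling that interval lay above 0, at 0.10 to 1.07.

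Rnf2, the more active ligase of the pair, also known as Ring1b, had 421 counts in control, beside 279 in TR1 and 394 in TR9. Its level was 25.22 FPKM in control, compared with 16.42 in TR1 and again 25.22 in TR9. TR1 alone was low, and it was not called, with a log2 ratio of -0.62 (-0.84 to -0.40). In TR9 the log2 ratio was 0.00 (-0.20 to 0.20). Between TR9 and TR1 the log2 ratio was 0.62 (0.39 to 0.85). Rnf2, Ezh1 at 0.47 (0.21 to 0.72) and Bmi1 at 0.24 (0.06 to 0.42) were the 3 members whose interval between the TR lines lay above 0. With TMM scaling the interval of Bmi1 came to include 0, at -0.07 to 0.29, and that of Eed lay below 0, at -0.63 to -0.11. With TPM scaling those of Ezh2 (0.11 to 0.44), Suz12 (0.004 to 0.26) and Ring1 (0.10 to 1.07) also lay above 0. These intervals were added after seeing the data.

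Ring1 made up 38.5% of the summed FPKM of both ligases in control, against 26.3% in TR1 and 24.3% in TR9. The count ratio of Ring1 to Rnf2 was 0.57 times that of control in TR1 (0.41 to 0.79) and 0.51 times in TR9 (0.38 to 0.69). The shift was thus similar in size in both lines, although Rnf2 itself was lower than control in TR1 and level with it in TR9. Between the lines it was 0.90 times (0.62 to 1.30).

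Bmi1, also known as Pcgf4, had 394 counts in control, beside 505 in TR1 and 549 in TR9, or 19.85, 24.99 and 29.55 FPKM. It was higher in both TR libraries without being called. The log2 ratio to control was 0.33 (0.14 to 0.53) for TR1 and 0.57 (0.38 to 0.76) for TR9. With TPM scaling the interval for TR1 came to include 0, at -0.09 to 0.30. Bmi1 and Ezh1 were the members with the largest positive ratios in TR9.

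Of the chromobox genes, Cbx2 had 67 counts in control, compared with 15 in TR1 and 25 in TR9, or 3.23, 0.71 and 1.29 FPKM. It was lower than control in both TR libraries, with a log2 ratio of -2.19 (-3.10 to -1.36) for TR1 and -1.32 (-2.05 to -0.64) for TR9. These were the largest differences of any member on this scale, and they rest on few counts. With a pseudocount of 1 FPKM they were -1.31 in TR1, level with Ring1 at -1.29, and -0.89 in TR9, which was not called and smaller than that of Ezh2 at -1.11. Between TR9 and TR1 the interval, -0.12 to 1.89, includes 0. In every library Cbx2 was the lowest of the 10 members.

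Cbx7, a reader of methylated H3K27 known to favour self-renewal of blood stem cells, had 56 counts in control, against 71 in TR1 and 54 in TR9, or 3.51, 4.38 and 3.62 FPKM. In TR1 its log2 ratio was 0.32 (-0.21 to 0.85) and in TR9 0.04 (-0.52 to 0.61). Cbx8 had 35, 35 and 29 counts, or 4.56, 4.48 and 4.03 FPKM, and its log2 ratios were -0.03 (-0.74 to 0.69) and -0.18 (-0.94 to 0.57). With FPKM, neither gene differed from control beyond counting error. With TMM scaling the interval of Cbx7 in TR1 came to lie above 0, at 0.03 to 1.09. At this depth the intervals are the widest of the uncalled members, and that of Cbx8 in TR9 reaches to nearly the limit for a call.

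Set against each other within a library, Cbx2 moved away from the other chromobox members. The count ratio of Cbx2 to Cbx7 was 0.18 times that of control in TR1 (0.085 to 0.36) and 0.39 times in TR9 (0.20 to 0.73). The ratio of Cbx2 to Cbx8 was 0.23 times that of control in TR1 (0.10 to 0.49) and 0.45 times in TR9 (0.22 to 0.93). For Cbx7 against Cbx8 the intervals included 1 in both, at 0.68 to 2.37 in TR1 and 0.60 to 2.27 in TR9.

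Cbx2 and Cbx8 are neighbours on mouse chromosome 11 (GENCODE M21, GRCm38), at 119022962 to 119031270 and 119036305 to 119040969, and Cbx2 was called lower while Cbx8 was not called. Cbx6, another Polycomb chromobox gene on another chromosome, had 445.7, 207.4 and 67.7 expected counts. It was called lower in both TR libraries, with a log2 ratio of -1.13 for TR1, which was -0.89 and not called with TMM scaling, and -2.62 for TR9. The counts of Cbx6 were not whole, which means that RSEM divided some reads between it and another gene.

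Of the summed FPKM of Cbx2, Cbx7 and Cbx8, Cbx2 made up 28.6% in control, against 7.42% in TR1 and 14.4% in TR9. Cbx8 had the largest share of the 3 in each library, at 40.4%, 46.8% and 45.1%, and Cbx7 followed at 31.1%, 45.8% and 40.5%. These shares, and those of the PCGF genes, were put together after the values were seen.

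**Figure D3:**
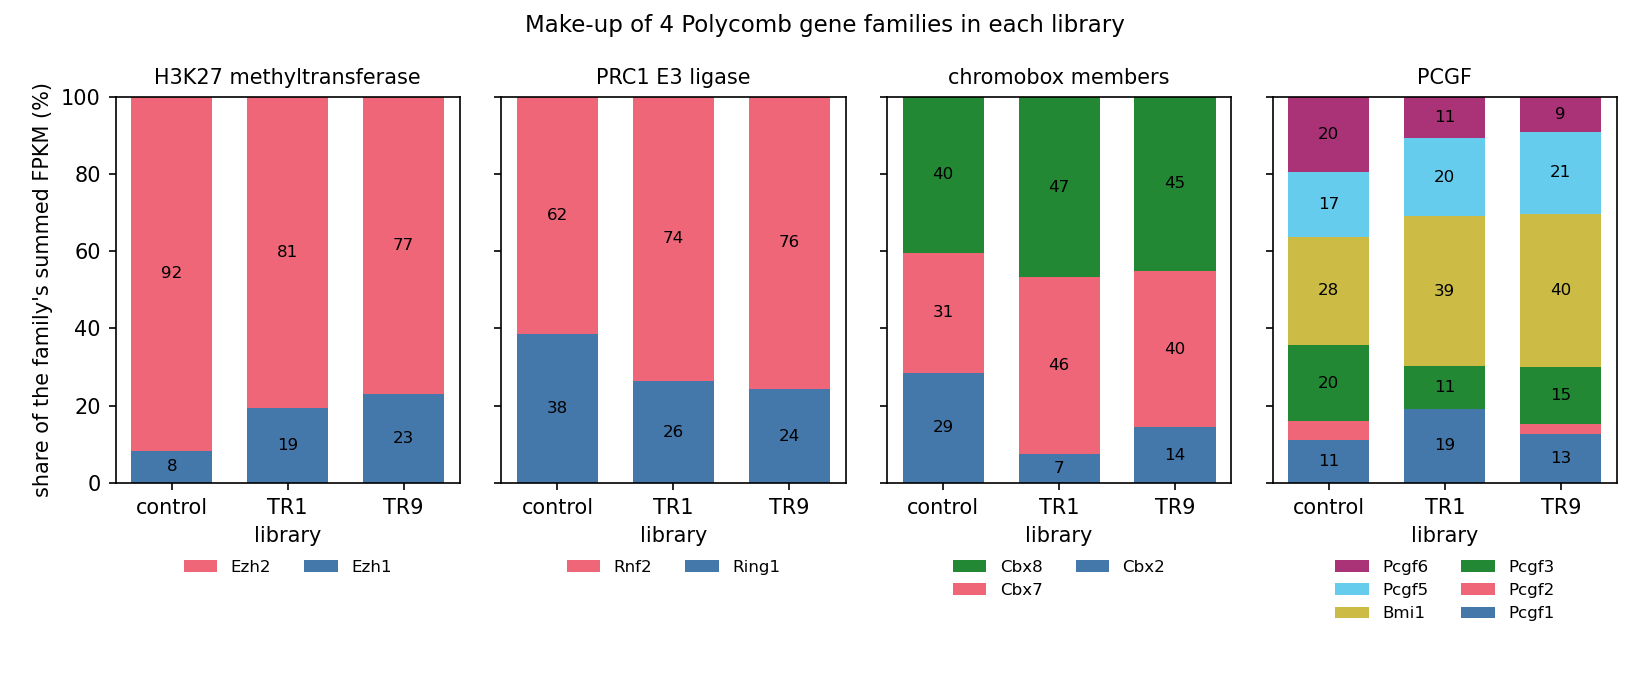
Share of each gene in the summed FPKM of its family, in percent, for the H3K27 methyltransferases, the PRC1 E3 ligases, the 3 chromobox members and the PCGF genes, with 1 bar per library. The numbers in the bars are shares in percent, left out below 6%. Ezh1 went from 8.33% in control to 19.5% in TR1 and 23.1% in TR9, and Cbx2 from 28.6% to 7.42% and 14.4%.

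Among the 6 PCGF genes, Bmi1 made up 28.1% of the summed FPKM in control, beside 38.9% in TR1 and 39.6% in TR9. Its closest relative Pcgf2, also known as Mel18, had 50 counts in control, compared with 0 in TR1 and 26 in TR9. Pcgf2 was called lower in TR1, by 16.9-fold against a floor of 3 counts, with a log2 interval that reached up to -3.73. It was not called in TR9, where its log2 ratio was -0.83. Relative to Bmi1, Pcgf2 was at most 0.06 times its control ratio in TR1 and 0.37 times in TR9 (0.22 to 0.62). Pcgf6, of a variant PRC1, had 161, 82 and 75 counts, with log2 ratios to control of -0.999 (TR1) and -1.01 (TR9). The latter was called, but not with TMM scaling, at -0.90. With TPM scaling Pcgf6 was called lower in both, at -1.22 in TR1 and -1.12 in TR9.

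The other genes of the pathway were taken from lists of known subunits. Of 47 such genes in 5 lists, 0 were called higher and 7 lower in TR1, and 1 higher and 4 lower in TR9. Of all genes tested, 13.2% were called lower in TR1 and 10.9% in TR9, and 8.13% and 9.48% higher. With TMM scaling 4 of the 47 were called lower in TR1 and 3 in TR9, beside 10.1% and 9.34% of all genes. With TPM scaling these were 13 and 5, beside 18.2% and 12.9%. Nothing particular to these genes is read from the counts, and the first shares given here also apply to the lists below. The median log2 ratio of the 47 genes was -0.38 for TR1 and -0.24 for TR9, beside -0.29 and -0.12 for all genes, and it differed between the lists.

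Of 9 PRC2 accessory subunits, 0 were called in TR1, and 1 was called higher in TR9. This was Jarid2, which helps to recruit PRC2, with 592 counts in control, against 926 in TR1 and 1278 in TR9 and a log2 ratio of 1.18 (1.04 to 1.32) in TR9. The histone-binding subunit Rbbp7 had 2004, 1056 and 969 counts and a log2 ratio of -0.95 in both TR libraries, not called. With TPM scaling it was called lower in both, at -1.18 in TR1 and -1.06 in TR9. Mtf2, which guides PRC2 to CpG islands, had 669, 655 and 687 counts and was not called.

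Of 8 other canonical PRC1 subunits, 0 were called higher and 4 lower in TR1, and 0 higher and 1 lower in TR9. Their median log2 ratio was -1.14 in TR1, the lowest of the 5 lists, and -0.28 in TR9. Besides the chromobox and PCGF genes above, the polyhomeotic gene Phc1 had 179 counts in control, beside 82 in TR1 and 158 in TR9, and Scml2 had 118, 47 and 96. Both were called lower in TR1 only, and in TR9 against TR1 both were called higher, with log2 ratios of 1.07 for Phc1 and 1.15 for Scml2. With TMM scaling neither call of Phc1 was made, at -0.92 in TR1 and 0.94 in TR9 against TR1.

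Of 17 variant PRC1 subunits, 0 were called higher and 3 lower in TR1, and 0 higher and 2 lower in TR9. E2f6, a repressor that brings variant PRC1 to promoters, had 394 counts in control, compared with 131 in TR1 and 217 in TR9, with a called log2 ratio of -1.59 in TR1 and an uncalled one of -0.74 in TR9. Auts2 had 53.4 expected counts in control and was at 0 in TR1 and TR9. Against a floor of 3 counts it was lower by 17.9-fold in TR1 and 16.5-fold in TR9. The log2 intervals reached up to -3.82 in TR1 and -3.70 in TR9. Of 11 subunits of PR-DUB, the complex that removes the ubiquitin placed by PRC1, none was called in TR1 or TR9 by the Poisson test.

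Of the H3K27 demethylases, which oppose PRC2, Kdm6b had 251, 307 and 314 counts and was not called. The X-linked Kdm6a had 326.5 counts in control, against 261 in TR1 and 59 in TR9. It was called lower in TR9, with a log2 ratio of -2.37 to control and -2.03 to TR1, and not in TR1, where the ratio was -0.35. The ratio of Kdm6a to Kdm6b in TR9 was 0.145 times that of control (0.10 to 0.20) and 0.22 times that of TR1 (0.16 to 0.31). Its Y-linked relative Uty, looked up after the Kdm6a values were seen, had 256.5 counts in control and 0 in TR1 and TR9. The control counts of both genes were not whole, as RSEM leaves them when it divides reads between similar genes. The Y-linked genes Kdm5d, Ddx3y and Eif2s3y had between 241 and 477 counts in control and at most 3.05 in the TR libraries. The labels used here give no sex, and the part of this difference in the Kdm6a result was not tested.

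**Figure D4:**
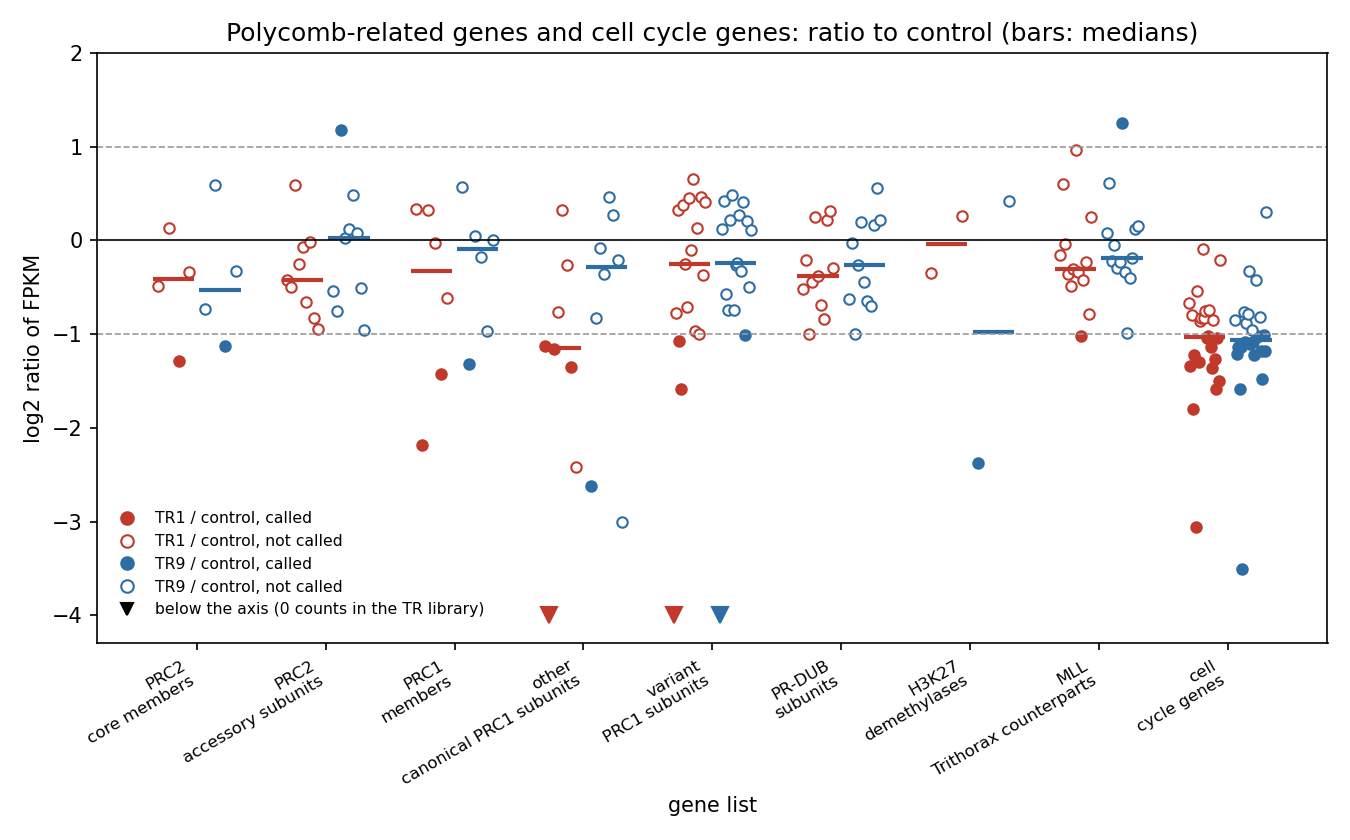
Log2 ratio of FPKM to control for the genes of 9 lists in TR1 (red) and TR9 (blue), 1 point per gene, with the median of each list as a bar. Filled points were called, and triangles at the lower edge mark Pcgf2 in TR1 and Auts2 in both, which had 0 counts there. The medians of the cell cycle genes are -1.03 in TR1 and -1.06 in TR9, and that of the other canonical PRC1 subunits in TR1 is -1.14, beside -0.28 in TR9.

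The MLL and Trithorax proteins counteract Polycomb by methylating other sites on histone H3. Of 13 of their genes, 0 were called higher and 1 lower in TR1, and 1 higher and 0 lower in TR9. Psip1, which tethers MLL to chromatin, was called lower in TR1 at a log2 ratio of -1.02, and was at -0.99 in TR9, not called. With TMM scaling it was at -0.78 in TR1 and not called. With TPM scaling it was called lower in both, at -1.25 in TR1 and -1.10 in TR9. Kmt2d had about 1901, 3782 and 4233 expected counts and was called higher in TR9 at 1.25, beside 0.97 in TR1, where it was called with TMM scaling, at 1.21.

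Cell cycle genes were examined because Ezh2 is known to be expressed in dividing cells. Of 24 such genes, 13 were called lower in TR1 and 15 in TR9, and none higher. Over the 5 scalings the number called lower ranged from 8 (TMM) to 18 (TPM) in TR1 and from 9 to 16 in TR9. Of all genes, 13.2% were called lower in TR1 and 10.9% in TR9. With TMM scaling these shares were 10.1% and 9.34%, and with TPM scaling 18.2% and 12.9%. The proliferation marker Mki67 had 14079 counts in control, beside 5586 in TR1 and 6484 in TR9. Cyclin E1 (Ccne1) had 533, 65 and 44, the S-phase cyclin Ccna2 2321, 679 and 722, and the ribonucleotide reductase gene Rrm1 4058, 1377 and 1361. Ezh2 lay among them: 7 of the 24 had a lower ratio than Ezh2 in TR1 and 9 in TR9.

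Taken as a percentage of the summed FPKM of these 24 cell cycle genes, Ezh2 was at 3.41% in control, compared with 2.96% in TR1 and 3.12% in TR9. Ring1 was at 0.56%, 0.44% and 0.57%. Most other members had larger percentages in both TR libraries than in control. Bmi1 was at 0.70%, 1.87% and 2.09%, Ezh1 at 0.31%, 0.72% and 0.94%, and Suz12 at 1.85%, 3.09% and 2.96%. Rnf2, Eed, Cbx7 and Cbx8 were also higher in both. The sum itself was 2827 FPKM in control, 1336 in TR1 and 1411 in TR9. A gene at an unchanged FPKM thus has a larger percentage in the TR libraries. Cbx2 was at 0.11%, 0.053% and 0.091%. This measure was added after the values were seen, and what part the cell cycle genes have in the Ezh2 result was not tested.

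The HOX genes, Cdkn2a and Cdkn2b are loci known to be silenced by Polycomb. Of 41 such genes, 26 were listed in any library, of which 22 in control, 10 in TR1 and 7 in TR9. Their summed FPKM was 23.3 in control, against 3.83 in TR1 and 3.40 in TR9. None was called higher, and 5 were called lower in each TR library, of 23 tested in TR1 and 25 in TR9. Of all genes, 13.2% were called lower in TR1 and 10.9% in TR9. Hoxa9, a progenitor gene, had 144 counts or 8.35 FPKM in control, close to the level of Ezh1 there. It was at 0 in TR1 and TR9. Against a floor of 3 counts it was lower by 48.7-fold in TR1 and 44.9-fold in TR9. The log2 intervals reached up to -5.29 in TR1 and -5.17 in TR9. Hoxa7 had 49 counts in control and Hoxa5 had 15, both with 0 in the TR libraries. Cdkn2a, the classic target of Bmi1, had 1 count in control, beside 13 in TR1 and 3 in TR9 and was not called.

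The genes whose ratios in TR1 and TR9 were nearest to those of Ezh2, by Euclidean distance over both log2 ratios among 9828 genes, were Gfm2, Xpnpep1 and Gemin8, at distances of 0.0056, 0.019 and 0.024. For Cbx2 they were Cdc42ep4, Slc12a4 and Tex9, at 0.037, 0.048 and 0.072. Each pattern has only 3 libraries behind it, and both ratios share the control.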

How the data were processed

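Expression of 10 Polycomb genes was analysed in 3 RNA-seq libraries, 1 per condition. The authors filtered the reads, and the submitters' processing notes name BWA, Bowtie, RSEM and the build mm9. Versions are not given in the sources used here. The authors deposited for each gene the expected count, estimated by RSEM and not normalized, and the FPKM, scaled for length and library total. Unlisted genes were set to 0. Of 16742 Gene IDs, 16698 were matched to RefSeq (GRCm38.p6) for names. Positions come from GENCODE M21 and promoters from RefSeq, since the files hold no coordinates.

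Rounded expected counts of 2 libraries were compared by the Poisson test in its conditional exact form (scipy 1.17.1), as the study names a Poisson method, and adjusted after Benjamini-Hochberg over all genes listed in either. Calls needed a false discovery rate of at most 0.001 together with a log2 ratio of FPKM of at least 1 in size, and FPKM under 0.01 were set to 0.01. Intervals are exact and cover counting error only. Folds against 3 counts or fewer were taken against 3 counts and leave out counting error in the other library. Ratios within a library are conditional odds ratios of counts.

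The members and lists were chosen with earlier results of these data known, and 1 gene of the lists is not reported here. Named genes were the members, the paralogue pairs, at most 3 genes of each list called the same way in both TR libraries, and the 3 genes nearest in pattern to members called in both. Of these, the text reports those of the Polycomb and cell cycle lists and some of the markers. Jarid2, Rbbp7, Mtf2, Phc1, Scml2, E2f6, Pcgf6, Kmt2d, Psip1, Mki67, Cdkn2a, Gata1, Ly6a, Flt3 and the Y-linked genes were named after their values were seen.

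Alternatives were 5 scalings, a pseudocount of 1 FPKM, a minimum of 10 counts, the exact test of edgeR 4.0.16 (R 4.3.3) at a biological coefficient of variation assumed to be 0.2, a false discovery rate of 0.05 and a log2 limit of 0.5. After seeing the data, the scalings were extended to the intervals of the members, to the lists and to named genes outside the members. The calling of genes was tested on simulated Poisson counts, which held no biological variation, so that test does not cover differences between mice. Scripts ran in Python 3.11.15 with pandas 2.3.3 and numpy 2.4.6, and figures were drawn with matplotlib 3.10.9.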

Additional observations from a re-analysis of the deposited data

How the results depend on the processing

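Ezh2, Ring1 and Cbx2 in TR1 and Ezh2 and Cbx2 in TR9 were called lower under all 5 scalings. TMM moved the median of all genes by 0.24 on the log2 scale in TR1, by 0.11 in TR9 and by -0.13 in TR9 against TR1, and it turned the split of all genes in TR1 from 1323 higher and 2152 lower to 1691 and 1640. Members near 0 changed sign with the scaling. Cbx8 in TR1 was at 0.21 with TMM, 0.21 with the median of ratios, 0.18 with the upper quartile and 0.10 with totals without the 100 most abundant genes. Suz12 in TR9 against TR1 was at -0.12, -0.13, -0.10 and -0.050 in the same order. With TPM scaling Ezh1 in TR1 was at -0.10 and Cbx7 in TR9 at -0.065, and Ring1 in TR9 was called, at -1.07. With a pseudocount of 1 FPKM, 1 member was called lower in TR9, since Cbx2 came to -0.89. At an absolute log2 ratio of at least 0.5, 4 members were called lower in TR1 (Ezh2, Ring1, Rnf2 and Cbx2), beside 23.3% of all genes, and 4 in TR9 (Ezh2, Eed, Ring1 and Cbx2), beside 19.1%. Called higher were 2 in TR9 (Ezh1 and Bmi1), beside 13.7%, and 1 in TR9 against TR1 (Rnf2), beside 9.25%. With edgeR's exact test at an assumed variation of 0.2, 0 members were called lower in TR1 and 0 in TR9, where 992 and 830 of all genes were, so the calls rest on counting error alone. No replicate was left out and no paired analysis was possible because each condition has 1 library. Depth limits Cbx2, Cbx7 and Cbx8, with at most 71 counts in a library.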
